A study of Mus musculus with 14 samples.

Results

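The replication-dependent histone genes encode the H1, H2A, H2B, H3 and H4 proteins that package newly made DNA. They were taken here as every protein-coding gene of the RefSeq annotation of the mouse genome (GRCm38) that has carried a symbol starting with Hist1h, Hist2h, Hist3h or Hist4h. The annotation writes most of them with newer symbols (H1f, H2ac, H2bc, H3c and H4c with a number). The rule gave 67 genes of 21774 coding genes: 6 of H1, 18 of H2A, 18 of H2B, 12 of H3 and 13 of H4. Of these, 54 lie on chromosome 13 (the Hist1 cluster), 10 on chromosome 3 (Hist2), 2 on chromosome 11 (Hist3) and 1 on chromosome 6 (Hist4).

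The data are 14 lists of transcription factor binding sites from chromatin immunoprecipitation and sequencing (ChIP-seq), each from 1 antibody in 1 sorted population derived from a strain 129 mouse embryonic stem cell line with a GFP reporter at brachyury (Bry.GFP). Mesoderm cells (MES) were Bry.GFP+ and FLK1-, hemangioblasts (HB) Bry.GFP+ and FLK1+, hemogenic endothelium (HE) Bry.GFP+ with Tie2+/Ckit+/CD41-, hematopoietic progenitors (HP) CD41+, and macrophages (MAC) CD11b+, the macrophages having been grown from CD41+ cells. C/EBPβ was measured at all 5 stages, GATA2 in HB and HP, RUNX1 and PU.1 (encoded by Spi1) in HP and MAC, ELK4 in MES, and GATA1 and GFI1B in HP. Every group held 1 list. The lists of C/EBPβ in MES, HE and HP, of GATA2 in HB and of RUNX1 in MAC merge technical sequencing runs, and the HE immunoprecipitation was made from few cells with recombinant histone 2B protein and mouse mRNA as carriers. The lists hold no expression values, so the names of the populations are those of the labels and were not checked against marker genes.

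Histone genes of this kind are unusual among coding genes. They lack introns as a rule, their messages end in a stem-loop instead of a poly(A) tail, and they are transcribed in S phase from a nuclear body organised by NPAT. Their promoters commonly carry CCAAT boxes, bound by the NF-Y complex, and TATA boxes. An octamer, bound by OCT1 (Pou2f1), is typical of H2B promoters, and the AAACACA element of H1 promoters. C/EBPβ and PU.1 are factors of the myeloid lineage, to which macrophages belong.

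A histone gene counted as bound in a list if it had a peak whose centre was no more than 2 kb from a transcription start site (TSS) of the gene. As the lists hold positions only, with no height or p-value, all values below are counts and distances and no test between lists was possible. Intervals are exact Clopper-Pearson 95% intervals that cover counting error only, and they treat genes as separate although neighbours share peaks. The lists ran from 72 peaks (RUNX1 MAC) to 82866 (PU.1 MAC) of 158488 in all, each peak 400 bp wide. The authors chose the p-value threshold for each list by eye, so the length of a list is not an amount of binding. Their quality control gives no enrichment by quantitative PCR for C/EBPβ in MES and HB, GATA2 in HB and RUNX1 in MAC. These samples were sequenced all the same.

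Promoter sequences of some bound histone genes are shown first. The H2bc9 promoter holds the C/EBPβ peak that recurred in MES, HP and MAC, and the H3c6 promoter the PU.1 peak closest to a TSS in HP. The H2bc14 promoter holds an octamer that overlaps C/EBP letters, and the H1f2 promoter the H1 element of a gene bound by both PU.1 and C/EBPβ in MAC. The H1f2 promoter itself held no peak, as the PU.1 and C/EBPβ centres lay 921 and 1209 bp after the TSS. Each is the 250 bases before the TSS from the RefSeq promoter table (GRCm38), 5′ to 3′ on the strand of the gene. Capitals mark CCAAT, ATTTGCAT (octamer), AAACACA and TTGCNNAA (C/EBP), each on either strand, so that CCAAT may read ATTGG and the C/EBP letters may end in GCAA. In H2bc14 the octamer and the C/EBP letters share 6 bases and form 1 run of capitals.
H2bc9, chr13:23543445-23543694, minus strand: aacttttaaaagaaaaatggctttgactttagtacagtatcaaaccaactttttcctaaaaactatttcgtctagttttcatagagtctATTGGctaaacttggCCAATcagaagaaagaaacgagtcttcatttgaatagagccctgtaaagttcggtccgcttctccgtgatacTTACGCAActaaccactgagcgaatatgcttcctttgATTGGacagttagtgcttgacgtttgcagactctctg
H3c6, chr13:23562386-23562635, minus strand: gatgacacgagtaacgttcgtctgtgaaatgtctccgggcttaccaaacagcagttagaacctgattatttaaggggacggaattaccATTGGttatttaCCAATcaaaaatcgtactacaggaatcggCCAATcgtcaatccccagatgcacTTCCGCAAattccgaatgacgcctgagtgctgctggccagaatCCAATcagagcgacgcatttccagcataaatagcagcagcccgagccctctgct
H2bc14, chr13:21721794-21722043, plus strand: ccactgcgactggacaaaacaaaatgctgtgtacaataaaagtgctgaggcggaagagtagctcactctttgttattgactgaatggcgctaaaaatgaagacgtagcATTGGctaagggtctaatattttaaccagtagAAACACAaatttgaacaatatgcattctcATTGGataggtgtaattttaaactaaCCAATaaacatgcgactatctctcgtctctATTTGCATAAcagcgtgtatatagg
H1f2, chr13:23738557-23738806, plus strand: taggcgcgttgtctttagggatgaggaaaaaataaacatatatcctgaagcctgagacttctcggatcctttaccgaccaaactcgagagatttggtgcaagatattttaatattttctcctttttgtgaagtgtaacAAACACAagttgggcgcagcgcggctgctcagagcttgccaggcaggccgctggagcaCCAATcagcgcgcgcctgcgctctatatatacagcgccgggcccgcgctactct

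A promoter sequence of 300 bases, from 250 before to 50 after the TSS, was found for 62 of the 67 genes. CCAAT on either strand was present in 53 of the 62 (85.5%), against 39% of 17492 coding promoters of the same length, and 44 of the 62 held at least 2 copies. It was in 16 of 16 H2B and 18 of 18 H2A promoters with a sequence, 10 of 10 H3 and 6 of 6 H1, but in 3 of 12 H4 promoters. TATAAA was in 35 (56.5%, against 13.3%). The octamer ATTTGCAT was in 13 (21%, against 1.71%), 7 of them H2A and 6 H2B, and in no H1, H3 or H4 promoter. AAACACA was in 9 (14.5%, against 6.13%). It was in 5 of the 6 H1 promoters, all but H1f1, where its first base lay between positions -122 and -112.

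For the factors measured here, TTGCNNAA was in 12 member promoters (19.4%, against 10.1% of coding promoters), and 5 of its 14 matches there overlapped an octamer. A match in the windows of 2 paired genes was counted for each. The letters searched for the GATA factors, AGATAA, were in 13 (21%, against 9.96%) and those for GFI1B, AATCNNNGC, in 11 (17.7%, against 10.9%), 5 of the latter in H1 genes. TGTGGTT (RUNX) was in 1 (1.61%, against 4.84%). Neither GAGGAAGT (PU.1) nor CCGGAAGT (ELK4) was in any of the 62, against 3.17% and 5.29% of coding promoters. A match of letters is not a binding site, and its absence says only that these letters are not in the window.

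In all, 44 of the 67 genes (65.7%, interval 53.1 to 76.8) were bound in at least 1 list, against 59.8% of all coding genes. All 44 were bound by PU.1 or C/EBPβ in MAC, the longest lists. The other 12 lists together reached 16 genes (23.9%, against 20.9%). By stage, MES lists reached 3 genes (against 3.63% of coding genes), HB lists 1 (1.15%), HP lists 16 (19.4%) and MAC lists 44 (58.9%). Of the 67, 23 genes were in no list, 25 in 1, 12 in 2, 4 in 3, 2 in 4 and 1 in 5. By class, 4 of 6 H1, 10 of 18 H2A, 12 of 18 H2B, 10 of 12 H3 and 8 of 13 H4 genes were bound, so that no class was without a bound gene.

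**Figure D1:**
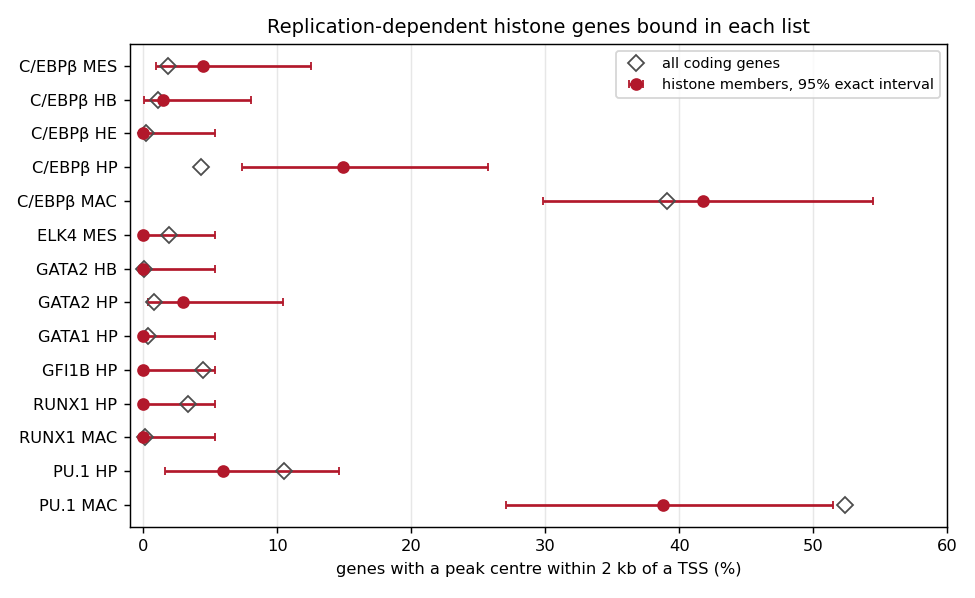
Share of the 67 replication-dependent histone genes with a peak centre within 2 kb of a TSS (circles, with exact 95% intervals for counting error) and of all 21774 coding genes (diamonds), in percent, for each of the 14 lists. The share of coding genes lies inside the interval in most lists, but outside it for C/EBPβ HP, at 14.9% for histone genes against 4.31%, and PU.1 MAC, at 38.8% against 52.4%.

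C/EBPβ, the only factor measured at all 5 stages, had histone genes at 4 of them, and PU.1 at both of the stages where it was measured. C/EBPβ was at 3 genes in MES (4.48%, against 1.81% of all coding genes), 1 in HB (1.49%, against 1.13%), 10 in HP (14.9%, interval 7.4 to 25.7, against 4.31%) and 28 in MAC (41.8%, interval 29.8 to 54.5, against 39.1%). In HE it was at none (against 0.161%), and 0 of 67 allows a share of up to 4.48% by a limit of 3 counts, while the upper end of the exact interval, drawn in the plot of shares by list, is 5.36%. The shares of all coding genes lay inside the intervals in MES, HB and MAC, and below the interval in HP. With 3 genes in MES and 1 in HB, those intervals are too wide to show that the shares are alike. The 10 genes in HP were reached by only 6 peaks, 4 of which lay within 2 kb of a pair of histone genes. With each peak given to the gene of the nearest TSS alone, 6 histone genes were bound in HP (8.96%, interval 3.36 to 18.5, against 3.85%). Within 1 kb there were 5 (7.46%, interval 2.47 to 16.6, against 3.5%) and within 500 bp 3 (4.48%, interval 0.933 to 12.5, against 2.65%). The histone share was the higher one in each of these, but the coding share lay inside the interval. It lay outside only within 2 kb or 5 kb and with shared peaks counted for each gene.

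The C/EBPβ peak found at most stages was that of H4c14 (Hist2h4), an H4 gene on the minus strand of chromosome 3 (chr3:96262934-96263317). Its centre lay 146 bp before the TSS in MES, 126 bp in HB, 120 bp in HP and 94 bp in MAC. PU.1 also had peaks 493 and 1046 bp after this TSS in MAC, which made H4c14 the gene in most lists, 5 of 14. All 4 C/EBPβ peaks of H4c14 lacked TTGCNNAA in their 400 bases and held CCAAT.

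The other recurrent site lay between H2bc9 (Hist1h2bh, H2B) and H3c7 (Hist1h3f, H3), which start 608 bp apart and point away from each other. The C/EBPβ centre was 82 bp before the H2bc9 TSS in MES, 70 bp in HP and 63 bp in MAC, or 526, 538 and 545 bp before that of H3c7. The letters TTACGCAA, in capitals in the H2bc9 sequence above, had their middle 12 bp from the peak centre in MES, 0 bp in HP and 7 bp in MAC. No HB or HE peak was listed there.

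In HP and MAC, but in no earlier list, C/EBPβ was at H2bc13 and H2ac13, at H4c8, and at H2ac6 and H2bc4. The peak shared by H2ac6 (H2A) and H2bc4 (H2B) lay 1722 bp before the former and 1482 bp after the start of the latter, in an intron of a long H2bc4 transcript. Its central 150 bases in HP are shown because they hold a pair of C/EBP matches, in capitals, 20 and 62 bp from the centre.
H2ac6, peak in HP, chr13:23685607-23685756, plus strand: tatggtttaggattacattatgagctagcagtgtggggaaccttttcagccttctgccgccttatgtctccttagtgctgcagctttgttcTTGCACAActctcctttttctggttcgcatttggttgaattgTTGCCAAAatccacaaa

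The peak of H2bc13 and H2ac13 was 1229 bp after the start of the former and 1458 bp before the latter in HP, and 4 bp from there in MAC. Among the 10 genes with C/EBPβ in HP, 8 were bound in MAC as well, 7 of them by a peak that overlapped the HP peak by at least 200 bp. Of all coding genes with C/EBPβ in HP, 98% had it in MAC. The 2 genes bound in HP alone were H2ac18 (268 bp before the TSS) and H3c14 (1456 bp before), which share 1 peak. PU.1 lay at this place in MAC, at 266 and 1454 bp, 2 bp from the HP centre of C/EBPβ. Of the 50-base words in that HP peak, 73.5% occur at only 1 place in the genome.

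**Figure D2:**
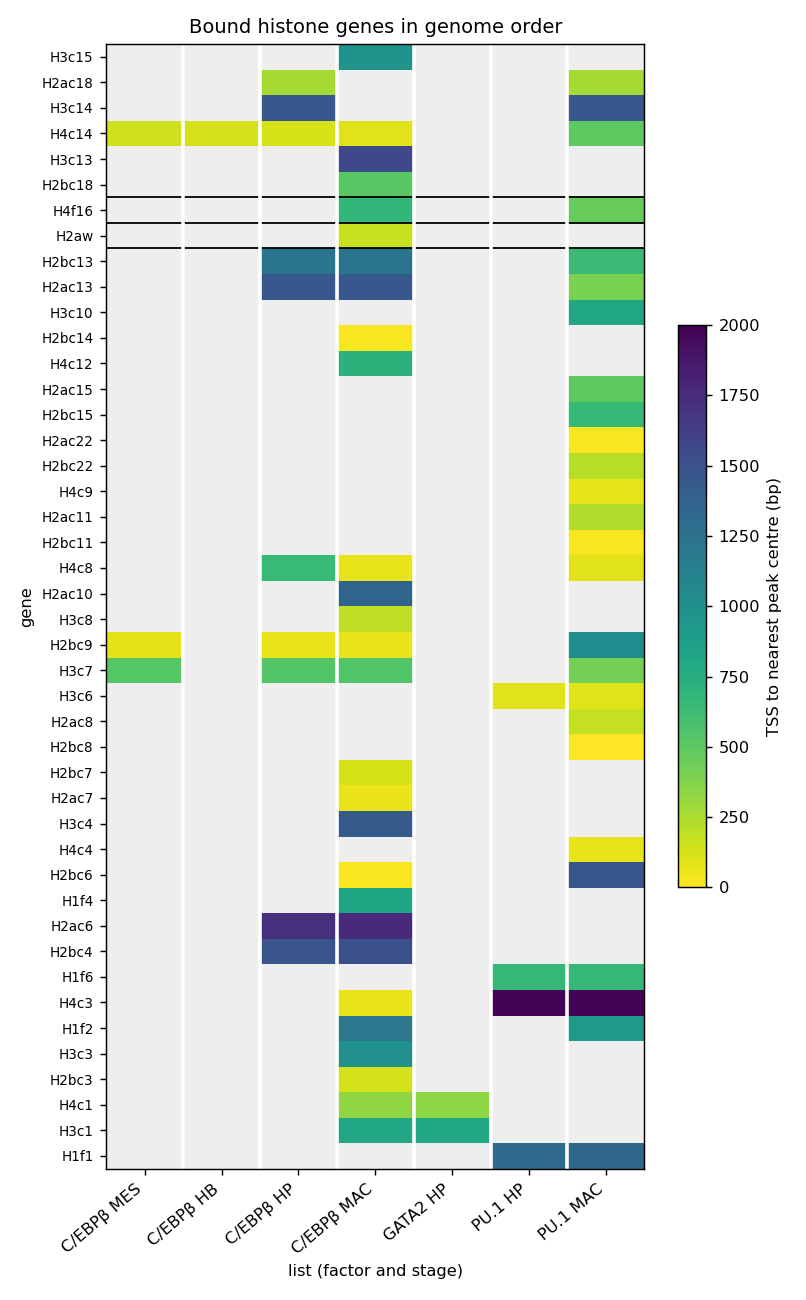
The 44 bound histone genes in genome order (rows, chromosomes divided by black lines) and the 7 lists with a histone gene (columns); colour gives the distance in bp from the TSS to the nearest peak centre, and grey marks no peak within 2 kb. H4c14 is filled in the 4 C/EBPβ lists shown, H2bc9 and H3c7 in MES, HP and MAC, and most other genes in 1 or both of the long MAC lists.

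In MAC, C/EBPβ reached 28 histone genes with 22 peaks. Of these genes, 8 were H2B, 7 H3, 6 H4, 5 H2A and 2 H1. Its closest centres were 17 bp before H2bc14, 20 bp before H2bc6, 55 bp before H2ac7, 59 bp before H4c3 and 63 bp before H2bc9. The distance for H2bc6 is to the most upstream of its 3 TSS, and the same peak lay 1414 bp after the start of H1f4. At H2bc14 the centre lay 3 bp from the middle of the C/EBP letters that overlap the octamer, the last run of capitals in its sequence above. At H2bc7 and H2ac7, an H2B and an H2A gene 174 bp apart, 1 peak lay between the start sites with C/EBP letters 7 bp from its centre. In all, 9 of the 22 peaks (40.9%) held TTGCNNAA, against 35.3% of all 10317 C/EBPβ MAC peaks within 2 kb of a coding TSS. In MES it was 1 of 2 peaks, in HB 0 of 1 and in HP 3 of 6 (50%, against 57.1% of 851). The share of histone genes bound by C/EBPβ in MAC lay above that of coding genes by the 2 kb window, within 5 kb (61.2% against 48.7%), with curated transcripts (41.8% against 36.3%) and with 1 TSS per gene (41.8% against 34.4%). It lay below within 1 kb (29.9% against 32.4%), within 500 bp (17.9% against 25.3%) and with nearest genes alone (26.9% against 35.8%). The coding share lay inside the interval of the histone genes in every one of these settings, so that none of them separated the shares.

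PU.1 was at 4 histone genes in HP (5.97%, interval 1.65 to 14.6, against 10.5% of coding genes) and at 26 in MAC (38.8%, interval 27.1 to 51.5, against 52.4%). The coding share lay inside the interval in HP and just above it in MAC. In MAC it lay inside the interval with curated transcripts alone (38.8% of histone and 49.6% of coding genes) and within 5 kb (59.7% and 60.8%). It stayed above the interval within 1 kb (31.3% and 47%), within 500 bp (23.9% and 39.5%) and with nearest genes alone (25.4% and 48.8%). Coding genes had 2.58 TSS each on average and histone genes 1.04, and with 1 TSS per gene the shares in MAC were 47.6% and 37.3%, the former inside the interval of the latter (25.8 to 50%). All 4 genes of HP were also bound in MAC, with centres 2 to 24 bp apart, as were 99.9% of all coding genes with PU.1 in HP. H3c6 (Hist1h3e, H3) had PU.1 93 bp before its TSS in HP and 101 bp in MAC. H1f6 (Hist1h1t), the testis-specific H1, had it 665 bp after the TSS in HP and 667 bp in MAC, and the same peak lay 1982 and 1980 bp after the start of H4c3. H1f1 (Hist1h1a) had it 1311 bp after the TSS in HP and 1335 bp in MAC.

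The peaks of H1f6 and H1f1 held GAGGAAGT, 13 and 16 bp from their centres in HP and 11 and 8 bp in MAC, and 30 bases around these letters are shown with them in capitals. The H1f6 match lies in the last codons of its coding exon, and the H1f1 match lies past the end of the gene, in no annotated exon.
H1f6, peak in HP, chr13:23696475-23696504, plus strand: aaggcagcaggGAGGAAGTgagtttcaaag
H1f1, peak in HP, chr13:23764981-23765010, plus strand: cttggttttgtGAGGAAGTggttatctccc

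These were also the only 2 of the 20 PU.1 peaks at histone genes in MAC that held the letters (10%, against 14.7% of 17041 PU.1 MAC peaks near coding TSS). CCAAT was in 16 of the 20 (80%, against 37.2%) and in 15 of the 22 C/EBPβ MAC peaks (68.2%, against 41.3%). As CCAAT was in 85.5% of the member promoters themselves, the peaks and the promoters cannot be told apart as its source. PU.1 centres in MAC lay 7 bp before H2bc8, 20 bp before H2bc11, 21 bp before H2ac22, 72 bp before H4c4 and 75 bp before H4c9. H4c9, H2ac11 and H2bc11 stand side by side and shared a pair of peaks.

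Distances between peaks and the TSS are given by list, with no test. Of the 28 genes with C/EBPβ in MAC, 11 (39.3%) had a centre within 250 bp of the TSS, against 47.4% of coding genes bound in that list. For PU.1 in MAC it was 10 of 26 (38.5%, against 57.8%), and for C/EBPβ in HP 2 of 10 (20%, against 44.6%). For C/EBPβ in MES it was 2 of 3 (66.7%, against 54.8%), in HB 1 of 1 (against 51.6%), for PU.1 in HP 1 of 4 (25%, against 44.4%) and for GATA2 in HP 0 of 2 (against 45.7%), counts too few to set a share. The median distance was 442 bp for PU.1 in MAC, against 181 bp, and 611.5 bp for C/EBPβ in MAC, against 280 bp. Histone genes lie so close together that a peak at one is often within 2 kb of the next, and 19 of the 39 merged regions lay at 2 or 3 histone genes.

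**Figure D3:**
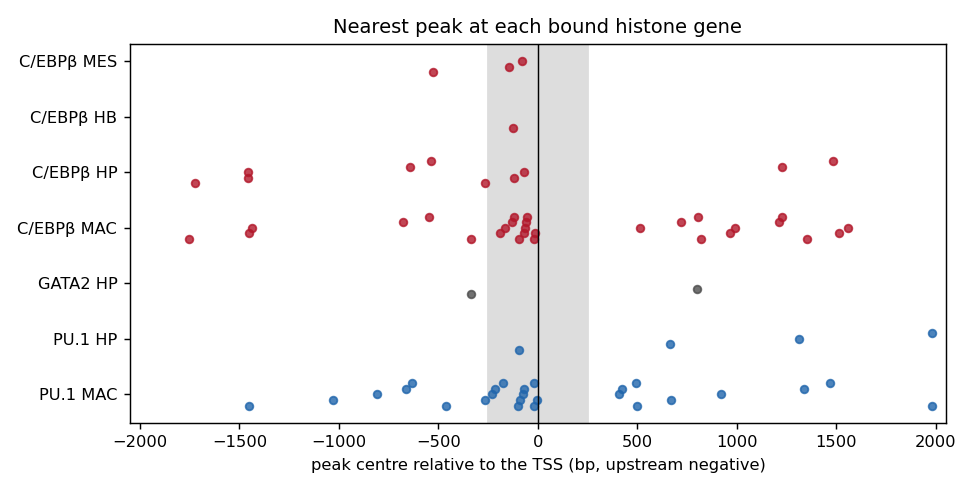
Distance in bp from the TSS of each bound histone gene to the centre of its nearest peak, in the 7 lists with a histone gene, with upstream negative and the 250 bp either side of the TSS shaded. Points are genes (3, 1, 10, 28, 2, 4 and 26 from top to bottom), spread vertically for sight only, and genes that share a peak give a point each.

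In MAC, PU.1 and C/EBPβ were both within 2 kb at 10 histone genes (14.9%, against 32.6% of coding genes). PU.1 alone was at 16 (23.9%, against 19.8%), C/EBPβ alone at 18 (26.9%, against 6.53%) and neither at 23 (34.3%, against 41.1%). This split was not counted by other windows or with 1 TSS per gene. Coding genes had 2.58 TSS each and histone genes 1.04, and neighbouring histone genes share peaks. The 10 were H4c14, H4f16, H2bc13, H2ac13, H4c8, H2bc9, H3c7, H2bc6, H4c3 and H1f2. H2bc6 has 3 TSS, and its PU.1 and C/EBPβ peaks lay at different ones, with centres 36642 bp apart. At 3 of them the peaks overlapped. C/EBPβ and PU.1 lay 72 and 92 bp before the TSS of H4c8, 678 and 463 bp before that of H4f16, and 1209 and 921 bp after that of H1f2, in this order. Of the regions, 20 held PU.1 MAC, 22 held C/EBPβ MAC and 3 held both. In HP no histone gene had both, against 1.07% of coding genes.

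GATA2 was at 2 histone genes in HP (2.99%, interval 0.364 to 10.4, against 0.804%) through 1 peak, 336 bp before H4c1 (Hist1h4a) and 801 bp after the start of H3c1 (Hist1h3a). C/EBPβ had a peak in MAC 1 bp from there. Neither peak held AGATAA or TTGCNNAA in its 400 bases. The central 150 bases of the GATA2 peak are shown because they have no capitals, that is neither the GATA, C/EBP and PU.1 letters nor the CCAAT, TATA, octamer and H1 elements searched.
H4c1, peak in HP, chr13:23761511-23761660, plus strand: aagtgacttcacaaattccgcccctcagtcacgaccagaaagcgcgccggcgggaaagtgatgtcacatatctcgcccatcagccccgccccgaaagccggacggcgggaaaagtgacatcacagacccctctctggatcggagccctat

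The remaining lists held no histone gene within 2 kb. They were ELK4 in MES (against 1.94% of coding genes), GATA2 in HB (0.0184%), GATA1 in HP (0.354%), GFI1B in HP (4.47%), RUNX1 in HP (3.34%) and RUNX1 in MAC (0.115%), as well as C/EBPβ in HE. Each of these coding shares lay under both limits given for C/EBPβ in HE, that of GFI1B only just under the limit of 3 counts, and a share of histone genes equal to that of coding genes was not detectable as a difference with 67 genes.

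On chromosome 13 the histone genes fall into 5 blocks when neighbours over 50 kb apart are divided. The first block, from H2bc13 to H4bc24, held 18 genes, of which 9 were bound in at least 1 list, as 59.8% of all coding genes were. The 6 genes whose surroundings hold little unique sequence (H2bc23, H2ac23, H4c17, H4c18, H2ac24 and H4bc24) all stand in this block and were not bound. The second, from H2ac12 to H2bc11, held 5 with 3 bound, all by PU.1 in MAC. The third, from H4c8 to H1f4, held 16 with 14 bound, and the fourth, from H2ac6 to H1f1, held 13 with 10 bound. The fifth, the testis-specific H2bc1 and H2ac1, held 2 with none bound.

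There were 13 pairs of histone genes whose start sites lay within 1 kb of each other and pointed apart, 12 of them an H2A with an H2B gene. The start sites of these 12 lay 164 to 281 bp apart (median 210.5 bp). A peak centre lay between the start sites of 4 of the 12. It was PU.1 in MAC for H2ac22 and H2bc22, for H2ac11 and H2bc11 and for H2ac8 and H2bc8, and C/EBPβ in MAC for H2bc7 and H2ac7. In 5 of the 12 neither gene was bound in any list, and 2 of these pairs (H2bc23 with H2ac23, and H2ac24 with H4bc24) are among the genes with little unique sequence. No such count was made for pairs of other coding genes.

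The chromosome 13 cluster also holds tRNA genes. Between chr13:21713711-23936913, that is from 2 kb before the first to 2 kb after the last histone gene, lay 77 of the 403 annotated nuclear tRNA genes (19.1%), none of them inside a histone block. The nearest to a histone TSS was 625 bp away and the next 4516 bp, with a median of 81095 bp. The nearest is n-TMcat9, a methionine tRNA gene with the anticodon CAT, and the histone gene is H4c8 (Hist1h4h, chr13:23531044-23531478, plus strand), the only one of the 67 with a tRNA gene within 2 kb. Its sequence is shown as the only tRNA gene under a peak at a histone gene.
n-TMcat9, chr13:23530348-23530419, minus strand: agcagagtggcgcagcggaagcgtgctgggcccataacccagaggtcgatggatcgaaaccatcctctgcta

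The C/EBPβ peak of H4c8 in HP, 642 bp before the TSS, had its centre within this tRNA gene, and so had a PU.1 peak in MAC, 695 bp before the TSS. C/EBPβ in MAC had no peak there and lay 72 bp before and 535 bp after the TSS. H4c8 would not be bound by C/EBPβ in HP without that peak, and the count there would be 9 in place of 10. The consensus of the B box, a promoter element inside tRNA genes, was not found letter for letter in n-TMcat9, nor in any of the 62 member promoters (0.137% of coding promoters held it).

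Within the span, most C/EBPβ peaks of HB, HE and HP lay at tRNA genes. With tRNA genes counted within 500 bp and histone genes within 2 kb, 11 of 11 peaks in HB, 16 of 16 in HE and 57 of 63 in HP (90.5%) were at a tRNA gene. In MES the span held 2 peaks, 1 at a tRNA gene and 1 at a histone gene. Peaks at a histone TSS numbered 0 in HB, 0 in HE and 4 in HP, including that of H4c8, which was at both. In MAC 17 of 61 C/EBPβ peaks (27.9%) were at a tRNA gene and 17 at a histone gene. For PU.1 the counts were 2 and 3 of 12 in HP, and 13 and 16 of 64 in MAC. For GFI1B in HP they were 3 and 0 of 5. In HP, C/EBPβ was at 64 of the 77 tRNA genes of the span (83.1%), against 227 of 403 in the genome (56.3%). In HE it was at 22 of the 77 (28.6%, against 35%), in HB at 12 (15.6%, against 22.3%), in MES at 1 (1.3%, against 2.98%) and in MAC at 20 (26%, against 25.6%). The 50 other coding genes in the span were bound in any list at 10 (20%), compared with 36 of the 54 histone genes there and 59.8% of all coding genes.

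**Figure D4:**
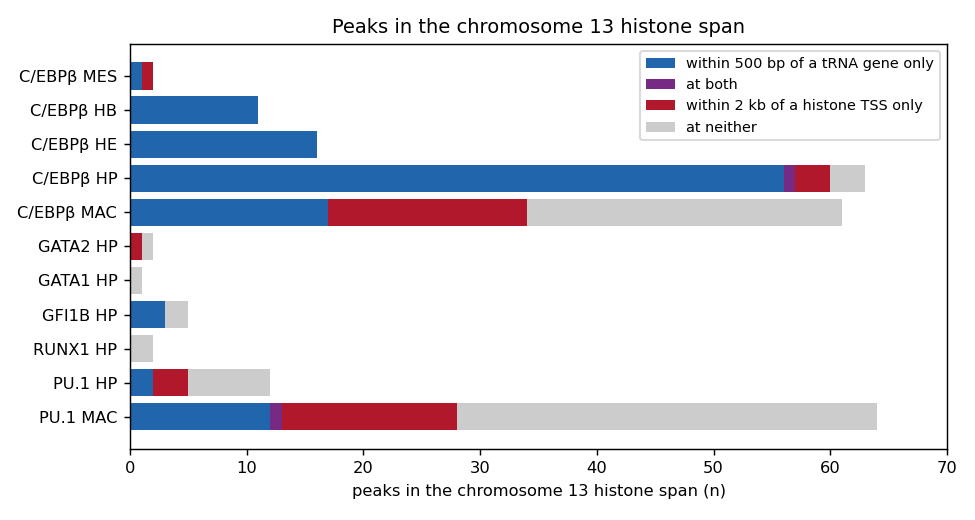
Number of peaks in the chromosome 13 span of the histone cluster, by list, divided by whether the centre lay within 500 bp of a tRNA gene, within 2 kb of a histone TSS, at both or at neither. The C/EBPβ bars of HB, HE and HP are almost wholly tRNA genes (11 of 11, 16 of 16 and 57 of 63), while those of C/EBPβ MAC and PU.1 MAC hold 17 and 16 peaks at histone genes.

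Histone genes are near copies of each other, and the authors kept only reads with a single place in the genome, so a read from a stretch that recurs was not used. From the reference sequence, all 13 H4 genes encode 1 protein and the 12 H3 genes 2 proteins, of which the more common is shared by 8 genes. The 18 H2A genes encode 9 proteins (lowest pairwise identity 87.7%), the 18 H2B genes 11 (85%) and the 6 H1 genes 6 (53%). Of the 50-base words of the coding sequences, as long as a read, a median of 24.7% occurred at only 1 place in the genome. That median was 89.1% for H1, 16.1% for H2A, 20.2% for H2B, 15.3% for H3 and 29.7% for H4.

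The flanks were more distinct. Within 2 kb of the TSS a median of 85.2% of the words were unique, 84.9% at the 44 bound genes (52.4% to 100%) and 92% at the 23 unbound ones (1% to 99.6%). Under 50% were found at 6 genes, H2bc23, H2ac23, H4c17, H4c18, H2ac24 and H4bc24 (an H2B gene, Hist1h2br), which stand together in the first block, and none of them was bound. Without them 44 of 61 genes were bound. Within 250 bp of the TSS the median was 77.7% for histone genes and 100% for all coding genes. In that narrower window 10 histone genes lay under 50%, 3 of them bound and 7 unbound. The peaks at histone genes themselves had a median of 100% and a lowest value of 58.4%. The part of repeated sequence in the counts was not tested beyond leaving out the 6 genes under 50% within 2 kb.

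**Figure D5:**
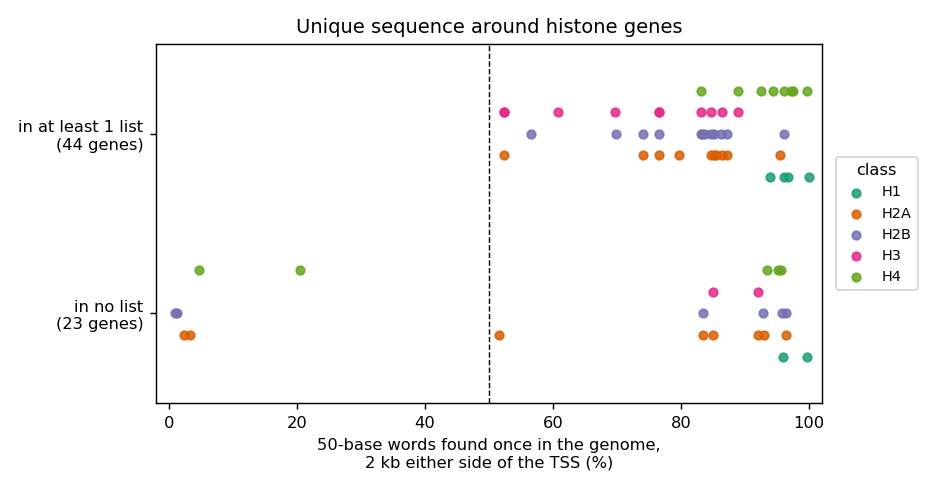
Share of 50-base words that occur once in the genome within 2 kb of the TSS, in percent, for each histone gene in a list (upper rows, 44 genes) and in none (lower rows, 23 genes), coloured by class. The dashed line is at 50%, and the 6 genes to its left, at 1% to 20.5%, are all in no list.

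Genes that make, process and replace these histones were compared as lists. Of 40 genes for the transcription and 3′ processing of histone messages, 38 were bound in at least 1 list (95%, against 59.8% of coding genes) and 14 in the 12 shorter lists (35%, against 20.9%). PU.1 in MAC was at 37 (92.5%, against 52.4% of coding genes), C/EBPβ in MAC at 23 (57.5%, against 39.1%) and PU.1 in HP at 9 (22.5%, against 10.5%). Slbp, which binds the stem-loop, had C/EBPβ 223 bp after its TSS in HP and 255 bp in MAC, RUNX1 at 441 bp in HP and PU.1 at 11 bp in MAC. Fip1l1, of the polyadenylation complex, had C/EBPβ within 39 bp of a TSS in MES, HB, HP and MAC. Zfp473, a zinc finger protein of histone pre-mRNA processing, had C/EBPβ 143 bp and GFI1B 157 bp before a TSS in HP. Cstf2t, a cleavage factor, had ELK4 124 bp before its TSS in MES and was the only gene of the 40 in that list.

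Casp8ap2 and Eri1, a protein of the histone locus body and an exonuclease of the stem-loop, had PU.1 264 and 111 bp before the TSS in HP and within 2 bp of there in MAC. Nfya, a subunit of NF-Y, had PU.1 and GFI1B in HP, Nfyc, another subunit, had PU.1 100 bp before a TSS in HP, and E2f1 and Ccne1, regulators of S-phase entry, had PU.1 in HP. Of the other genes of cleavage and processing, Clp1 had C/EBPβ 298 bp and PU.1 484 bp before its TSS in HP, Cstf3 had GFI1B 166 bp before, Cpsf3 PU.1 1058 bp after a TSS and Snrpd3, a protein of small nuclear RNPs, PU.1 669 bp before, all in HP. Npat itself was bound only in MAC, by C/EBPβ 110 bp after and PU.1 251 bp before a TSS.

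The 11 replacement histone genes, whose proteins are made outside S phase as well, were bound in at least 1 list at 10 (90.9%, against 59.8%) and in the 12 shorter lists at 7 (63.6%, against 20.9%). H2aj had C/EBPβ 1056 bp after its TSS in MES, 1052 in HB, 1048 in HP and 1023 in MAC, with PU.1 at 1046 bp in MAC. H2az2 had C/EBPβ in MES, HP and MAC, 332 to 357 bp after a TSS, and H2az1 1181 bp after in HP. H3f3b had RUNX1 453 bp after a TSS in HP, and Cenpa, the centromeric H3, PU.1 192 bp before in HP and 198 bp in MAC. PU.1 in HP also lay 1261 bp after a TSS of Macroh2a1, a macroH2A gene, and 778 bp before H1f10, a linker histone gene. H2ax was in no list.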

How the data were processed

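Peak lists from 14 ChIP-seq samples of mouse cells were analysed. As the study describes its processing, the authors trimmed adapters with CutAdapt, aligned reads to mm10 (GRCm38) with Bowtie, kept uniquely placed reads, removed duplicates with Picard, called peaks with MACS against the input of the same stage at a threshold set by eye, and refined the data further with polyPeak. Tool versions are not given in the sources used here. The deposited values are other than a signal or score: they are peak coordinates in bp, with no read count, so the depth is unknown. The labels do not say that lists came from separate cultures.

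Coding transcripts and tRNA genes came from the RefSeq annotation of GRCm38, and 56206 coding TSS were used. The 5 genes H2bc21, H2bc4, H3c1, H3c7 and H4c14 are named with no promoter sequence. Counts and distances were computed with Python 3.11.15, NumPy 2.4.6 and SciPy 1.17.1, and proteins were translated and aligned with Biopython 1.88. The search for bound genes, motifs and unique words was tested on simulated data with planted peaks and letters. Motifs were searched on both strands. Words of 50 bases were counted over the whole genome on both strands.

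Genes named in full are those bound in a list other than PU.1 MAC and C/EBPβ MAC, ordered by the number of lists, and genes with a tRNA gene at a peak. Machinery and replacement histone genes bound before MAC are all named, those in fewest lists past the limit that the rule set. H2bc14, H2bc7, H2ac7, H2bc6, H2bc8, H2bc11, H2bc22, H2ac22, H2ac8, H2ac11, H4c4, H4c9, H4f16, H1f2, H2aw, Npat and H2ax, and the genes with little unique sequence, were chosen after their values were seen. The members and lists were chosen with earlier results of these data known. Alternatives were the window, the choice of TSS, the overlap rule, peaks at tRNA genes, nearest genes and the set of members.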

Additional observations from a re-analysis of the deposited data

How the results depend on the processing

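The counts depend most on the window and on how shared peaks are given to genes. Of 185 alternative values, 165 stayed within 1.5 times the reported one and 20 did not. This tally is not a measure of robustness. The 7 lists with no bound histone gene could not move by settings that admit fewer genes. Only 2 histone genes have more than 1 TSS, so the choice of TSS could hardly matter. The 500 bp window left 9 values and moved 6. With a 500 bp window, bound genes in at least 1 list numbered 26, and C/EBPβ HP fell to 3, C/EBPβ MAC to 12, GATA2 HP to 1, PU.1 HP to 1 and PU.1 MAC to 16. With 1 kb, C/EBPβ HP gave 5 and PU.1 HP 2. With 5 kb, C/EBPβ HB gave 2, C/EBPβ HE 1, GATA2 HP 7, GFI1B HP 1, PU.1 HP 8 and PU.1 MAC 40. With each peak given to the nearest TSS alone, C/EBPβ HP gave 6, C/EBPβ MAC 18, GATA2 HP 1 and PU.1 MAC 17. These changes follow from the construction of the alternatives, which admit fewer or more genes per peak. Counting tRNA genes within 200 bp left 1 of the 3 GFI1B HP peaks and 7 of the 13 PU.1 MAC peaks at tRNA genes of the chromosome 13 span. The rule by newer symbols alone and the removal of genes with little unique sequence were added after seeing the data and moved no count by over 1.5 times. No paired analysis was possible because every group holds 1 list. The 67 genes limit a share to steps of 1 gene, lists without replicates give no error between samples, and their thresholds differ.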

Other observations

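Among the 10 genes of the chromosome 3 cluster, 6 were bound in at least 1 list, as were 59.8% of all coding genes. C/EBPβ in HP was at 3 of the 10 (against 4.31% of coding genes), H4c14 by a peak of its own and H2ac18 and H3c14 by 1 peak that they share. The only chromosome 6 gene, H4f16, was bound by both factors in MAC, and 1 of the 2 chromosome 11 genes, H2aw, by C/EBPβ in MAC 166 bp before its TSS.

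Binding was also counted by promoter letters, with no test. C/EBPβ, at any stage, was at 9 of 35 histone genes with TATAAA in the promoter (25.7%) and at 17 of 27 without it (63%), against 23.1% and 42% of coding genes with and without it. For PU.1 the counts by TATAAA were 11 of 35 (31.4%) and 13 of 27 (48.1%), against 28.9% and 56% of coding genes, so that the order was the same in both. By CCAAT, C/EBPβ was at 23 of 53 genes with it (43.4%) and 3 of 9 without (33.3%), against 40.3% and 38.9% of coding genes, and PU.1 at 21 of 53 (39.6%) and 3 of 9 (33.3%), against 51.5% and 53%. With the octamer, PU.1 was at 2 of 13 genes (15.4%), and at 22 of 49 without (44.9%), against 43.1% and 52.5% of coding genes, and C/EBPβ at 5 of 13 (38.5%) and 21 of 49 (42.9%), against 36.8% and 39.5%. C/EBPβ was at 7 of the 12 genes with TTGCNNAA in the promoter (58.3%) and at 19 of the 50 without (38%), against 40.3% and 39.4% of coding genes. Neighbouring genes share peaks and parts of their promoter windows. These letters were compared after the binding was known, and the part of gene class in these shares was not tested.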
